A study of Mus musculus with 102 samples.

Results

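Of 2177608 CpGs measured by bait capture and bisulfite sequencing in mouse embryonic stem cells (ESCs), 46458 (2.13%) were at most 10% methylated in wild-type (WT) cells and at least 50% methylated in cells without TET activity before any treatment. These 46458 CpGs are called TET-dependent below, a name that stands for this pair of limits and for nothing further. They made up 3.95% of the 1175023 CpGs at or below 10% in WT and 5.27% of the 880938 CpGs at or above 50% in the line without TET. The study held 102 samples, 24 measured by SureSelect capture and 78 by amplicon bisulfite sequencing, with 3 replicates in each group. WT cells are ESCs of the C57BL6/J strain in which the catalytic exons of both alleles of Dnmt3a and Dnmt3b lie between loxP sites, and Tet1, Tet2 and Tet3 are intact. The Tet triple knockout (TTKO) line is a clone of these cells with frameshift mutations in all Tet alleles, so both lines carried the floxed Dnmt3 alleles. Day 0 samples were not transduced, and the later samples came 4 to 29 days (at 6 time points) after transduction with Cre protein, which removes the catalytic exons of Dnmt3a and Dnmt3b, or, in the amplicon assay alone, after mock treatment. Per the study's methods the excision was incomplete and left some functional Dnmt3 alleles, which bears on every level measured after Cre. The capture samples comprised WT at day 0 and TTKO at day 0 and at every day after Cre. Since TTKO was 1 clone, a difference between the lines cannot be told apart from a difference between this clone and its parent. Cells were grown on feeders before transduction, plated on feeders for it and later moved to plates without feeders.

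Methylation of a cytosine in a CpG is written by DNMT3A and DNMT3B on unmethylated DNA and copied to the new strand at replication by DNMT1. TET enzymes oxidise 5-methylcytosine, and the oxidised bases are replaced by cytosine through repair or are not copied at replication. Enhancers and the edges of CpG islands in ESCs are known for low methylation together with TET activity, and where TET is missing, loss can still come from incomplete copying by DNMT1, which is termed passive demethylation.

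The sequence around TET-dependent CpGs is shown for parts of 4 of the largest clusters and for the clusters that kept the smallest and the largest share of their methylation after Cre. Each line gives the mm9 positions on the plus strand, from the Ensembl sequence of NCBIM37, and capitals mark the TET-dependent CpGs.
Nr2f2 cluster (chr7:77492228-77492377): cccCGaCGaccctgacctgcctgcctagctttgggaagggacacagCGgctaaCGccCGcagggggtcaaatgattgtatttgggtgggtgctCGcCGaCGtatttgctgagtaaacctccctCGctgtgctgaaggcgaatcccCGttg
Lbx1 cluster (chr19:45304698-45304846): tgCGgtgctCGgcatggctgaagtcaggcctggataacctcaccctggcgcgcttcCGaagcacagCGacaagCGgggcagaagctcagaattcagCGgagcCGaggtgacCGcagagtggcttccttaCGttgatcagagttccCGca
Foxa1 cluster (chr12:58649427-58649576): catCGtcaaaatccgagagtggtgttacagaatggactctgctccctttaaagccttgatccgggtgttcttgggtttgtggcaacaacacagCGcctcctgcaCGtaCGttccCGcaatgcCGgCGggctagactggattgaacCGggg
Gata4 cluster (chr14:63866295-63866444): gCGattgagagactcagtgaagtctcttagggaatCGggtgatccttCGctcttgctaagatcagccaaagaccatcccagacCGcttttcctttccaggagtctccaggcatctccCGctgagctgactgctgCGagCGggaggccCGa
Arhgef19 cluster, smallest share kept (chr4:140830720-140830868): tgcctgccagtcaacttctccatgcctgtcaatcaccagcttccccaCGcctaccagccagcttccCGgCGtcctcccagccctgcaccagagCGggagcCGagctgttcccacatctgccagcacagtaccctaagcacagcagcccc
Errfi1 cluster, largest share kept (chr4:150254062-150254211): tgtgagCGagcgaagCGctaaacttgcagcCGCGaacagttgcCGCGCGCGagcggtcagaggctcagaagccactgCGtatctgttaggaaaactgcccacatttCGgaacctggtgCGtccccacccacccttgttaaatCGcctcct

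In these windows the TET-dependent CpGs were 10 of the 11 CpGs near Nr2f2, which encodes a nuclear receptor, and 10 of 12 near Lbx1, a homeobox gene of muscle precursors and spinal cord. They were 8 of 10 near Foxa1, a pioneer factor of endoderm, and 8 of 8 in an intron of Gata4, a regulator of heart and endoderm. The window near Arhgef19 held 5 CpGs, all TET-dependent. The Errfi1 window, near a gene for a feedback inhibitor of the EGF receptor, held 14 CpGs, 12 of them TET-dependent. In the Gata4 window, WT levels of these CpGs were at most 3.60% and TTKO day 0 levels between 58.4% and 85.1%.

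The capture table gives a single level per CpG and day, in which the replicates had been joined, so no spread between replicates is known for it. Median coverage of the TET-dependent CpGs was between 168 reads at day 8 and 282 reads at day 17, and every value rests on at least 50 reads. Amplicon levels at TET-dependent CpGs had a median of 2693 reads per sample. Intervals computed from reads cover counting error only.

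The levels that chose the CpGs are given as a description. The mean level of the TET-dependent CpGs was 6.30% in WT (SD 2.40 over CpGs) and 63.5% in TTKO at day 0 (SD 9.34 over CpGs), against 23.4% and 35.8% over all measured CpGs. High levels were few: 2712 reached 80% and 62 reached 90% in TTKO at day 0. Both limits cut through a continuous range of levels. Just inside the WT limit, 6871 TET-dependent CpGs were above 9% in WT, and just outside it 6922 CpGs were above 10% and at most 11%. The mean TTKO levels of these edge sets were 64.9% and 65.4%. At the TTKO limit, 2239 CpGs were under 51% inside and 2083 were between 49% and 50% outside, with mean WT levels of 5.92% and 5.82%. The count therefore depends on where the limits are set. TET-dependent CpGs were found on every autosome, at 1.78% to 2.41% of measured CpGs, at 1.27% on the X chromosome, and at none of the 152 CpGs measured on Y.

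TET-dependent CpGs lay close to each other. Each TET-dependent CpG was paired with every measured CpG near it. In pairs at most 10 bases apart, the neighbour was TET-dependent too in 43.5%, against 2.13% of all measured CpGs. This share of pairs was 31.7% at 21 to 50 bases, 21.6% at 101 to 200 bases and 7.19% at 501 to 1000 bases. At 2001 to 5000 bases it was still 3.99%. A CpG near several TET-dependent CpGs counts once for each, so the shares of pairs give more weight to large clusters than the 2.13% does. TET-dependent CpGs at most 500 bases apart were joined into 20527 clusters. Of these, 11173 held a single CpG, 9354 held 2 or more, 2127 held 5 or more and 47 held 20 or more. Clusters of 2 or more held 76.0% of the TET-dependent CpGs, and clusters of 5 or more held 35.6%. The median span of clusters of 5 or more was 373 bases (quartiles 237 and 586).

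Clusters were mixed with other CpGs. Within clusters of 5 or more, 52.5% of the 31471 measured CpGs were TET-dependent. Of the other 14938, 59.2% were at most 10% in WT and did not reach 50% in TTKO, and 36.0% reached 50% in TTKO but were above 10% in WT. Counted along the measured CpGs, there were 31546 uninterrupted runs of TET-dependent CpGs, 779 of them with 5 CpGs or more and the longest with 31. Around clusters of 5 or more, the mean WT level over all measured CpGs rose from 7.36% inside to 17.5% at 101 to 300 bases outside and was 13.0% at 501 to 750 bases. In TTKO at day 0 it fell from 56.2% inside to 48.0% at 101 to 200 bases and 29.0% at 501 to 750 bases. In WT these clusters were thus dips in methylation and in TTKO they were peaks, as fixed by the choice of their CpGs inside the cluster, while the flanks were set by the rule only in that they hold no TET-dependent CpG within 500 bases.

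**Figure D1:**
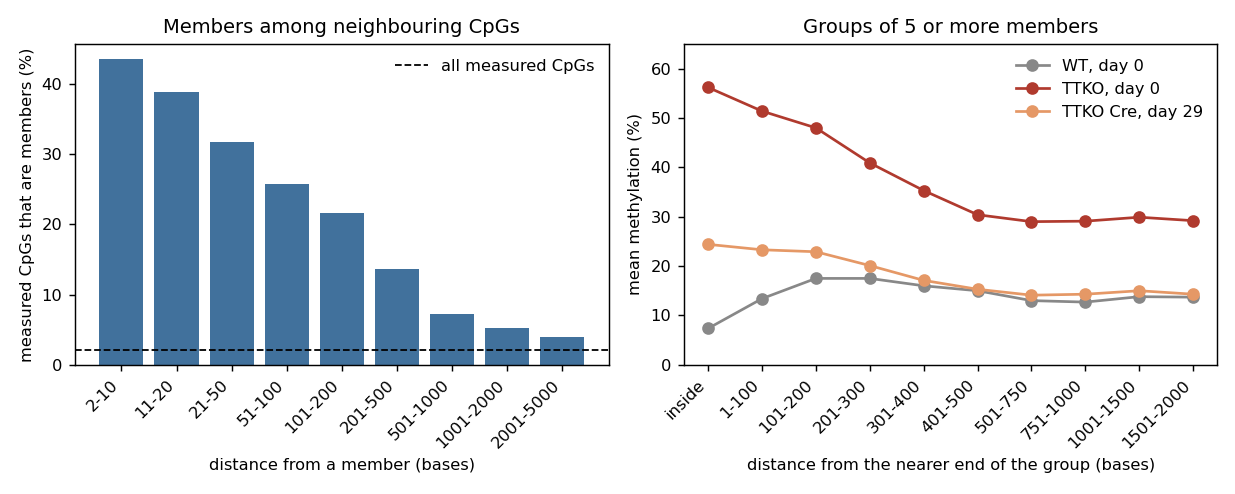
Left, pairs of a TET-dependent CpG (member) and a measured neighbour, as the share in which the neighbour was a member too, against distance in bases. The dashed line is the share of members among all measured CpGs, each counted once. The bars fall from 43.5% to 3.99% and all stand above the line at 2.13%. Right, mean methylation of all measured CpGs inside clusters of 5 or more and at distances outside them, for WT at day 0, TTKO at day 0 and TTKO at day 29 after Cre; the TTKO day 0 line falls from 56.2% to about the level of its flanks within 500 bases.

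Each cluster is named by the protein-coding gene it overlaps or by the nearest one, which does not show that it acts on that gene. The largest held 61 TET-dependent CpGs among 129 measured over 4235 bases (chr1:91828669-91832903) and overlapped the start of Gbx2, a homeobox gene of the hindbrain boundary that is also active in naive ESCs. From summed reads, its level was 3.28% in WT and 67.5% in TTKO at day 0. The Nr2f2 cluster (chr7:77492231-77495220) held 51, at 6.02% and 72.3%, and lay 1612 bases from the gene. At Emx2, a homeobox gene of the developing cortex, a cluster of 44 lay in intron and coding exon (chr19:59535063-59536819), with 5.39% in WT and 77.3% in TTKO at day 0, and a cluster of 29 lay 1314 bases outside the gene. At Onecut2, which encodes a homeodomain factor of liver and neurons, there were clusters of 47 and 44.

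Other clusters among the largest 15 sat at promoters, introns or intergenic positions. The Vrtn cluster (chr12:85981219-85983556), 40 CpGs at the promoter of a gene linked to vertebral number, had 3.39% in WT and 69.3% in TTKO at day 0. The Lhx9 cluster (chr1:140737975-140739116), 37 CpGs of which 36 were in a promoter of this LIM homeobox gene, had 6.13% and 73.6%. In the Gata4 intron cluster (chr14:63866040-63866916), 29 of 30 measured CpGs were TET-dependent, and in the Vax1 cluster (chr19:59268576-59268953), 22950 bases from this homeobox gene of the ventral forebrain, 28 of 30 were. These were nearly unbroken. Others of the 15 lay near Lbx1 (31), Foxa1 (31), Prdm8 (29) and Errfi1 (27).

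The share of TET-dependent CpGs among measured CpGs was highest at intermediate CpG density and lowest in the densest DNA. Their nearest CpG in the genome was a median of 16 bases away, against 12 for all measured CpGs. The median was 6 for CpGs low in both lines (at most 10% in WT and also at most 10% in TTKO at day 0). For CpGs above 10% in WT and at least 50% in TTKO it was 21. TET-dependent CpGs had a median of 4 other CpGs within 100 bases on each side, against 5, 13 and 3 in those sets. Their share among measured CpGs was 1.72% where no other CpG lay within 100 bases, 3.39% at 6 to 8 other CpGs and 0.365% at 13 or more. Among CpGs at or above 50% in TTKO, by contrast, the share rose through all density classes, from 2.46% with no other CpG to 11.9% with 13 or more. Dense CpGs were seldom methylated in TTKO, but those that were were more often low in WT.

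In windows of 100 bases on each side, 13.3% of TET-dependent CpGs had island composition (G+C content over 50% and an observed over expected CpG ratio over 0.6), against 33.5% of all measured CpGs and 64.5% of the CpGs low in both lines. In windows of 250 bases on each side the shares were 7.34%, 31.9% and 65.8%. Within 1000 bases of an annotated start site lay 15.9% of them, against 37.9% and 70.1%. Introns held 35.5% and intergenic DNA 34.4%, against 25.6% each of all measured CpGs. In these shares the TET-dependent CpGs stood between the CpGs low in both lines and those above 10% in WT and at least 50% in TTKO, of which 8.69% were near a start site and 41.5% in introns. All these shares are among captured CpGs, which the bait design selects.

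**Figure D2:**
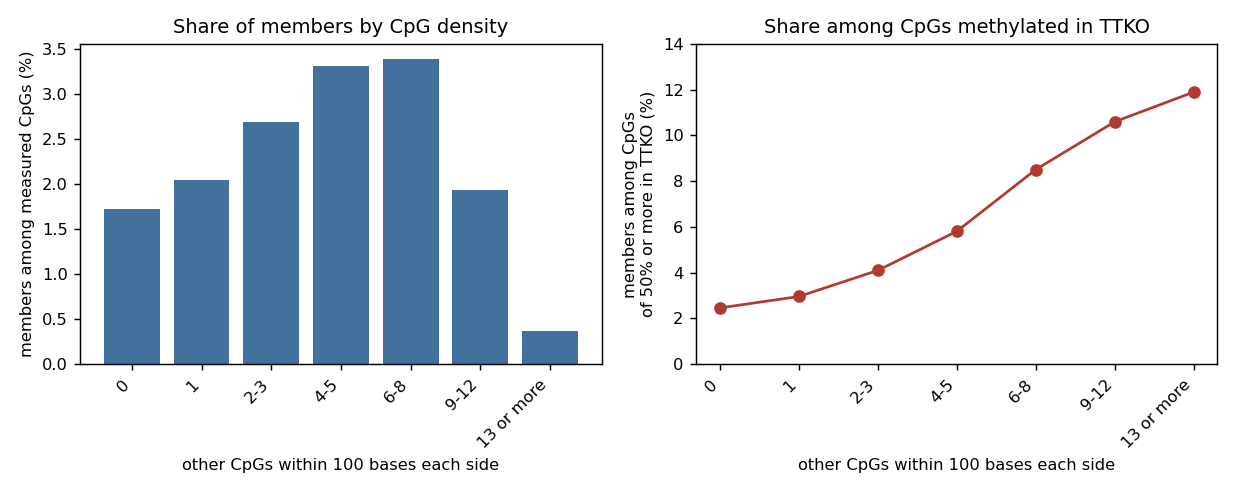
Share of TET-dependent CpGs (members) by the number of other CpGs within 100 bases on each side, among all measured CpGs (left, bars) and among CpGs of at least 50% in TTKO at day 0 (right, points). The left share is highest at 6 to 8 other CpGs (3.39%) and lowest at 13 or more (0.365%), while the right share rises from 2.46% to 11.9%.

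The bases next to the CpG differed from those of other measured CpGs. Of the TET-dependent CpGs, 15.5% stood in CCGG, against 9.56% of all measured CpGs, 10.7% of those low in both lines and 8.33% of those above 10% in WT and at least 50% in TTKO. In single chromosomes the CCGG share was between 13.8% and 17.3% for TET-dependent CpGs and between 8.45% and 10.2% for all measured CpGs, so the ranges did not overlap. It stayed between 15.1% and 16% through 5 classes of CpG density. ACGG (with CCGT on the other strand) was also more frequent, at 18.6% against 11.9%. GCGC was less frequent, at 3.16% against 8.32% of all measured CpGs and 11.1% of those low in both lines. Seen from the CpGs at or above 50% in TTKO, 9.36% of those in CCGG and 2.85% of those in GCGC were TET-dependent.

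Windows of 50 bases on each side were searched on both strands for 8 short letter patterns of factors known in ESCs, and the shares describe letters, not binding. Neighbouring windows overlap. The OCT4 octamer (ATTTGCAT) was in 0.844% of windows around TET-dependent CpGs and in 0.376% of windows around all measured CpGs. The shares were 1.80% and 0.919% for the SOX site (CATTGTT), 2.11% and 1.04% for the KLF site (GGGTGTGG), and 0.786% and 0.336% for the ESRRB site (TCAAGGTCA). These 4 patterns were more frequent than in the CpGs above 10% in WT and at least 50% in TTKO as well, where the shares were 0.354%, 1.18%, 0.889% and 0.551%. The CTCF core motif was less frequent, at 0.112% against 0.267% of all windows, but was at 0.0653% around the CpGs above 10% in WT and at least 50% in TTKO. The AP-1 site (TGANTCA) was at 3.16% against 2.23% of all windows and 3.08% around the CpGs above 10% in WT and at least 50% in TTKO, the TFCP2L1 motif at 1.38% against 1.19%, and a part of the REST site (TTCAGCACC) at 0.250% against 0.192%.

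Of 18073 protein-coding genes with a measured CpG in the gene or the 2000 bases before it, 7419 held a TET-dependent CpG, and 1.77% of the CpGs measured there were TET-dependent. Among 48 lineage transcription factor genes, 43 held at least one and the share was 5.35%, and among 39 Hox genes, which set position along the body axis, 34 did and the share was 4.73%. Of 30 genes of stem cell signalling 23 did (2.42%), of 29 core pluripotency genes 12 did (2.15%), and of 19 genes of the methylation machinery 10 did (2.18%). The shares were lower in 17 imprinted genes, of which 11 held one (1.53%), and lowest in 20 germline genes that methylation silences, of which 6 held one (0.755%). The lists were chosen by function with earlier results of these data known, so their shares are counts with no test and no independent evidence.

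The 2 records with most TET-dependent CpGs, Gm20388 (366) and Fgfr2 (117), span 4434882 and 3009069 bases in the annotation, and 2.58% and 2.47% of their CpGs were TET-dependent, near the share over all measured CpGs. Next came Gata4 with 72 of 380 measured CpGs (18.9%), Maml3, a coactivator of Notch signalling, with 70 of 633 (11.1%), and Onecut2 with 61 of 339. Pax3, a regulator of neural crest and muscle, had 51 of 173 (29.5%). Of the pluripotency genes, Gbx2 had 32 of 284, Sall4 15 of 273, Esrrb 13 of 562 and Lefty1, an inhibitor of Nodal, 11 of 49. Dnmt3a had 7 of 257 and Tet1 had 6 of 183, and Cxxc5, whose product binds unmethylated CpGs, had 21, or 8.71% of those measured. Among Hox genes, Hoxd3 had 49 of 530 and Hoxb1 16 of 93. Gabbr2, a receptor gene for GABA, held 17 TET-dependent CpGs, whose mean level was 4.89% in WT and 69.0% in TTKO at day 0 and 40.3% at day 29 after Cre.

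After Cre in cells without TET, the TET-dependent CpGs lost methylation at every interval measured. The mean level went from 63.5% before Cre to 58.0% by day 4, 52.0% by day 8 and 47.9% by day 10. It reached 44.2% on day 13, 36.9% on day 17 and 28.1% on the last day. Since day 0 chose the CpGs, the course is read from day 4. At day 29 the mean was 48.4% of the day 4 mean. Single CpGs kept a median of 46.3% (quartiles 35.7% and 58.0%), 7.06% kept under 25% and 5.27% kept at least 75%. At day 29, 3.42% of the TET-dependent CpGs were back at or below 10%, and 6.54% were still at or above 50%.

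Compared with other CpGs (non-members), the result turned on the day at which levels were matched. For non-members weighted to the same day 4 levels, in bins of 5 percentage points, the mean fell from 58.0% at day 4 to 25.2% at day 29, or 43.5% of the day 4 mean, and they had a mean WT level of 37.3%. When the non-members were limited to CpGs of at least 50% in TTKO at day 0, they kept 44.6%. When CpGs of at least 50% were matched on the day 0 level instead, they began at 63.7%, had 61.5% on day 4 and ended at 27.9%, close to the 28.1% of the TET-dependent CpGs. From the same day 0 level both sets thus ended close together, and the shares kept since day 4 (45.4% against 48.4%) rest on different day 4 levels (61.5% against 58.0%). With matching on day 4, TET-dependent CpGs kept more in 20 of 20 chromosomes against both sets, with 44.8% to 51.6% in single chromosomes against 41.8% to 46.3% and 42.8% to 47.8%. The direction was not the same at all levels. From day 4 levels of 40% to 50%, TET-dependent CpGs kept 43.2% and the non-members of at least 50% at day 0 kept 34.0%, and from 60% to 70% they kept 48.6% and 46.8%. Above 70% the order was turned, with 67.6% and 73.9% from levels of 80% to 90%.

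The test of day 29 against day 4 used neither column that chose the CpGs. By Fisher's exact test on pooled reads with Benjamini-Hochberg adjustment over all CpGs, 44877 of 46458 TET-dependent CpGs (96.6%) were lower at day 29, against 57.1% of all CpGs tested (percent called lower), with a median difference of -30.4 percentage points. At the same day 4 levels, 96.7% of the non-members of at least 50% at day 0 were lower, so the share was that of CpGs with these starting levels. Only 10 TET-dependent CpGs (0.0215%) were higher, against 0.112% of all CpGs, and 6 of these 10 lay in the Errfi1 cluster. The test compares pooled libraries and not replicates.

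The share kept also differed with cluster size, the neighbouring bases and density. Single CpGs kept 46.4% of their day 4 mean, those in clusters of 5 to 9 kept 49.1%, and those in clusters of 20 or more kept 56.1%. Their day 0 means rose alongside, from 61.2% to 64.9% and 66.6%. TET-dependent CpGs in CCGG kept 52.2% and those in ACGT 44.6%, with day 0 means of 64.8% and 63.1%. By density, those with 13 or more other CpGs within 100 bases kept 54.5% and those with 2 or 3 kept 47.2%, although the first had a lower day 0 mean (60.8% against 63.7%). No replicate spread is known for these differences.

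**Figure D3:**
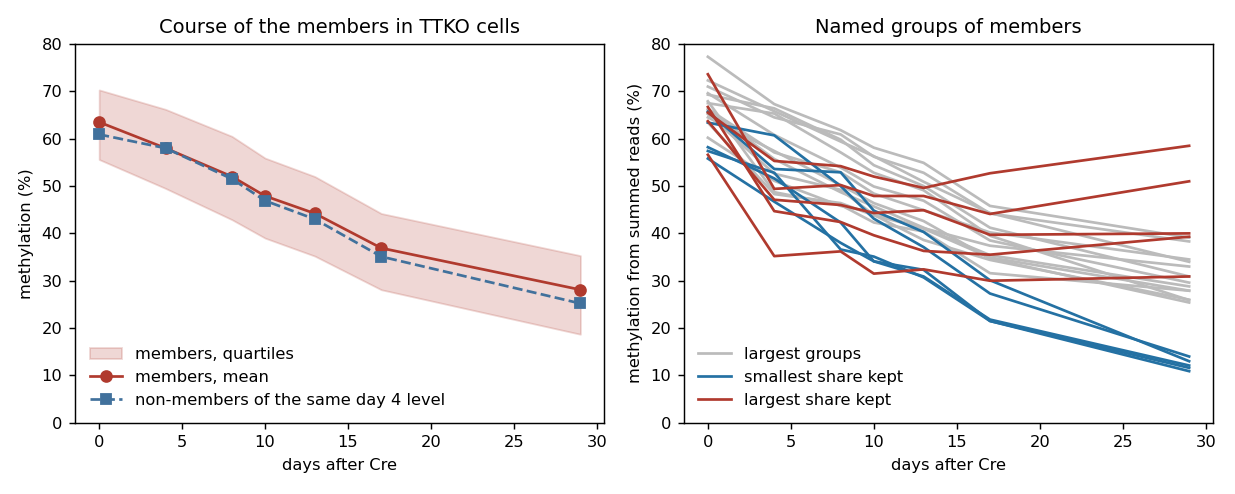
Left, methylation in TTKO cells against days after Cre: the mean and quartiles over TET-dependent CpGs (members), and the mean of non-members weighted to the same day 4 levels; the lines share 58.0% at day 4 and end at 28.1% and 25.2%. Right, levels from summed reads of the named clusters, with the largest in grey, the 5 that kept the smallest share in blue and the 5 that kept the largest share in red; the Errfi1 and Lhx9 lines end above their day 4 levels.

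The clusters shown next are the extremes of the 723 clusters of 8 or more, chosen by the share kept, so their values and calls are descriptions. Over clusters of 5 or more, the SD of the mean share kept between clusters was 10.7 percentage points, against a median SD of 12.3 between the CpGs within a cluster. The Lhx9 promoter cluster went from 73.6% at day 0 to 49.4% by day 4 and lay at 50.2% on day 8, 47.9% on days 10 and 13, 44.1% on day 17 and 51.0% on day 29 (95% Wilson interval 49.8% to 52.1%). It thus ended at 103% of its day 4 level, and 24 of its 37 CpGs were at or above their own day 4 level. Fisher's test called 2 of the 37 lower and 1 higher. The Errfi1 cluster (chr4:150253539-150254287), 10538 bases from the gene, went from 65.5% to 55.3% by day 4 and 49.6% on day 13, with 52.7% on day 17 and 58.5% on day 29 (57.6% to 59.4%), with 0 of 27 called lower and 6 called higher. These were the only named clusters to end above their day 4 level.

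The other clusters that kept the largest shares also fell early and then changed less. A cluster of 10 in an intron of Arl15, an ARF-like GTPase gene (chr13:114816476-114817279), had 66.7% at day 0, 44.7% at day 4 and 39.3% at day 29, so it kept 87.9%. A cluster of 9 in the coding exon of the potassium channel gene Kcna1 (chr6:126593117-126593369) had 56.6%, 35.2% and 30.9%, and a cluster of 14 in an intron of Dlx5, a homeobox gene of bone and forebrain (chr6:6828537-6829112), kept 84.8%, with 63.7% at day 0 and 47.1% at day 4. In all 5 of these clusters the level fell more from day 0 to day 4 than over the remaining days. Day 0 chose the CpGs, so the early fall is given with no test.

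The clusters that kept the smallest shares were intergenic. The cluster of 11 lying 17129 bases from Arhgef19 (chr4:140830608-140831266) went from 57.4% at day 0 to 52.8% by day 4, 36.6% by day 8 and 30.7% by day 13, then to 21.5% on day 17 and 10.9% on day 29 (9.84% to 12.1%), so it kept 20.6%. All 11 were called lower. The cluster near Tnfrsf13c, the BAFF receptor gene (chr15:82047330-82047763), kept 22.5%, and the one nearest to Mgat5b, a glycosyltransferase gene (chr11:116908872-116909274), kept 23.0%. Those nearest to Cpsf6 (chr10:116830406-116830707) and Taok1 (chr11:77437989-77438856) kept 24.2% and 25.9%. The Cpsf6 cluster rests on the fewest reads, 741 at day 29, and its interval at that day was 10.7% to 15.6%.

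Apart from Lhx9 and Errfi1, the largest clusters kept intermediate shares. Gbx2 kept 39.7% and Foxa1 44.2%. Fisher's test called 61 of 61 and 31 of 31 of their CpGs lower, near the 96.6% of all TET-dependent CpGs. It did so for all CpGs of other large clusters too, such as Nr2f2 (51 of 51) and Vrtn (40 of 40). Vrtn kept 46.6%, the Gata4 intron cluster 48.8%, Nr2f2 51.6% and Lbx1 51.7%. The Emx2 gene body cluster kept 58.0% and the Onecut2 clusters 60.3% and 59.3%.

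Rates were estimated by fitting a model of de novo methylation (rate k_me) and demethylation (rate k_de) to the pooled levels of each CpG, in which k_me fades after Cre. In TTKO cells k_de stands for passive loss. Rates were called determined where the fit gave a probability under 0.08 to the border of the grid and 95% ranges under 2 on the log2 scale. This held for 42462 TET-dependent CpGs (91.4%), but for 28546 with a beta-binomial likelihood and 30014 when fitted from day 4 on. Over all 46458 the median log2 k_de (rate per day) was -4.64 (quartiles -5.19 and -4.36) and the median log2 k_me was -3.95 (-4.36 and -3.54). CpGs above 10% in WT and at least 50% in TTKO, weighted to the same TTKO day 0 levels, had medians of -4.64 and -3.68. The steps of the grid are 0.138. Among CpGs with determined rates the medians were -4.64 and -3.81 for TET-dependent CpGs and -4.50 and -3.68 for the weighted others, so the medians of the sets differed by no more than 2 steps of the grid. Day 0 is part of the fit, so these are descriptions. At 13 or more other CpGs within 100 bases the medians were -4.78 and -4.36, the lowest of the density classes for k_me.

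Amplicon samples gave values with replicates at 18 TET-dependent CpGs in 10 amplicons, out of 405 amplicon CpGs of which 259 were also captured. Of the 18, 10 lay in introns of Akap6 (5), Cradd (3) and Zfp704 (2), 7 were intergenic and 1 lay in another kind of gene record. CpGs of an amplicon share their reads. At day 0 all 18 were higher in TTKO than in WT, by 49.5 to 83.5 percentage points (median 62.0). Their replicates did not overlap between the lines, which was not counted over all amplicon CpGs. All 18 were called higher, against 59.3% of all amplicon CpGs. The CpGs had been chosen for this contrast in capture DNA of the same lines and day, so this describes their levels in another assay and is no independent test. The WT means were between 3.32% and 23.5%, and 8 of the 18 were above 10%, the limit that had chosen them in the capture assay. TTKO means were between 55.3% and 91.0%.

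In mock-treated cells at day 29, all 18 were again higher in TTKO, by 43.9 to 73.9 percentage points (largest adjusted p = 0.00128 with limma moderation), against 42.5% of all amplicon CpGs. The CpGs had been chosen at day 0 for a difference in this direction between these lines, so this too is no independent test. The intron CpG of Akap6, a scaffold of protein kinase A, at chr12:54133829 had the highest level. It read 10.0%, 5.47% and 7.22% in the WT samples at day 0 and 90.6%, 90.3% and 92.3% in the TTKO samples. The intergenic CpG at chr4:153053454 had the highest WT level, with 25.6%, 24.5% and 20.2% in WT and 68.6%, 69.6% and 80.7% in TTKO at day 0. At both CpGs every WT sample lay far below every TTKO sample.

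At day 29 after Cre, all 18 were lower in TTKO Cre than in TTKO mock samples, by 12.7 to 50.5 percentage points (largest adjusted p = 0.0322 with limma moderation), against 68.6% of all amplicon CpGs called lower. The median difference was -31.8 percentage points. The amplicon CpGs as a whole were not matched to the 18 by level. Whether the 18 differ from others of the same level was not tested. The largest fall was at the intergenic CpG chr3:65260049, with 66.2%, 63.4% and 75.4% in mock samples and 19.7%, 17.4% and 16.3% after Cre. The smallest was at chr12:54133838 in Akap6, with 81.2%, 81.1% and 79.9% in mock samples and 70.3%, 73.1% and 60.6% after Cre, a difference of -12.7 percentage points that did not hold its call when 1 sample was left out in 5 of 6 cases. Only 9 bases from it, chr12:54133829 still had 81.1%, 83.7% and 71.3% after Cre, against 91.7%, 92.3% and 91.2% in mock samples. Of the other 3 CpGs in this Akap6 intron, chr12:54134055 had 35.0%, 26.2% and 17.2% after Cre against 48.6%, 56.7% and 55.4%. The 3 CpGs in Cradd had no level in the third mock sample at day 29 and were fitted with 2 mock samples.

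**Figure D4:**
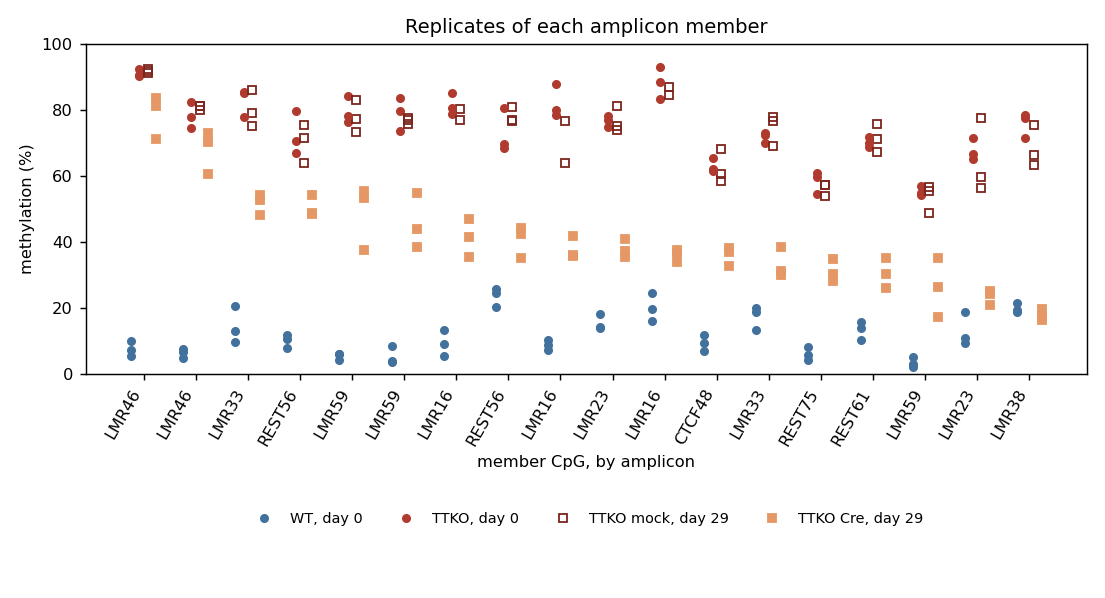
Methylation (%) of each of the 18 TET-dependent CpGs in single amplicon samples, ordered by the level at day 29 after Cre; filled circles are WT and TTKO at day 0, open squares TTKO mock and filled squares TTKO Cre at day 29, and labels are amplicon names. At each CpG the WT points lie below all TTKO day 0 points, and the Cre squares lie below the mock squares.

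Averaged over the TET-dependent CpGs measured in each sample (14 to 18), TTKO had 74.8% ± 0.310 (SD, n = 3) at day 0. After Cre the mean went to 67.7% ± 2.25 by day 4, 64.7% ± 2.00 by day 8 and 61.3% ± 1.72 by day 10. It was 58.6% ± 3.29 on day 13, 51.7% ± 0.669 on day 17 and 40.8% ± 2.01 on day 29. The means of the TTKO mock groups were between 73.1% and 78.0%, and single mock samples between 69.2% and 80.6%. The 3 Cre samples lay below the 3 mock samples at every day from day 8 on, while at day 4 the highest Cre sample and the lowest mock sample both had 69.5%. At day 29 they were 42.5%, 41.3% and 38.6% against 71.1%, 72.3% and 75.9%.

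WT cells were low at day 0 and at late days, but not in between. Their mean was 11.5% ± 0.562 (SD, n = 3) at day 0, 29.8% ± 3.14 on day 4 and 33.6% ± 4.10 on day 8 of mock treatment, then 23.7% ± 0.732 by day 10, 15.5% ± 0.447 on day 13 and 13.9% ± 0.941 at day 17. The day 4 means hide wide differences between replicates at single CpGs, where the SD reached 30.6 (60.1%, 20.5% and 0% at chr10:94717188). At day 8 the SDs at single CpGs were between 0.391 and 18.1. In a comparison added after the values were seen, all 18 were higher in WT at mock day 8 than at day 0, by 7.42 to 35.6 percentage points (median 22.8, largest adjusted p = 0.0335 with limma moderation), against 62.5% of all amplicon CpGs. The amplicon day 0 libraries are not those that chose the CpGs, but the labels do not show whether their DNA was separate. A low WT day 0 level did choose the CpGs, so part of this difference and of its count can come from that choice. Between 12 and 18 kept their call when 1 sample was left out, and 12 did without WT day 0 replicate 1. All 9 WT mock samples of days 4, 8 and 10 had means of at least 23.0%, above the 10.9% to 11.9% of the day 0 samples. The 3 WT Cre samples of day 4, at up to 21.9%, lay above day 0 as well. Mock and Cre cells had been through the transduction protocol and day 0 cells had not, and the part of this protocol and of the feeders in the rise was not tested. In TTKO the same comparison called 0 of 18, with differences between -6.13 and 10.8 percentage points, against 0.494% of all amplicon CpGs, and 1 of 18 had an unadjusted p under 0.05. The interaction of line and day passed for 9 of 18 CpGs, against 23.5% of all amplicon CpGs, and its log2 ratio of odds ratios was above 0 in all 18. It compares odds, TTKO was already high at day 0, and the day 0 levels of both lines chose the CpGs in the direction of this interaction, so it is no independent test.

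After Cre, WT cells went below their day 0 level. The mean was 19.7% ± 3.23 on day 4 (n = 3) and 13.3% ± 1.25 on day 8, was 7.80% ± 3.79 by day 10 and 3.97% ± 0.922 by day 13, and ended at 2.93% ± 0.735. At day 29 the WT Cre samples had 2.45%, 3.77% and 2.55% and the WT mock samples 12.6%, 15.5% and 14.1%, which do not overlap. With TET and after Cre, these CpGs were thus lower than in any of the other conditions at that day, and the TTKO Cre samples of that day were still at 38.6% to 42.5%.

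**Figure D5:**
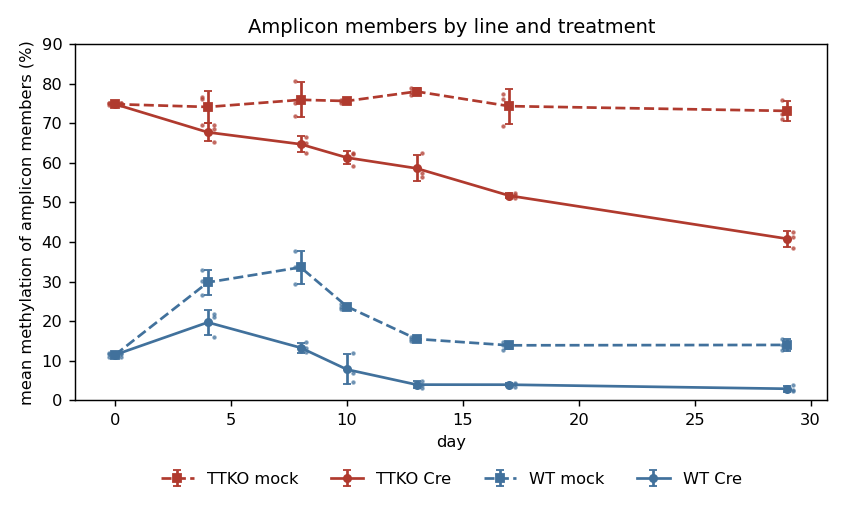
Mean methylation of the TET-dependent CpGs in amplicon samples against day, for TTKO and WT after Cre and after mock treatment; small points are single samples, larger symbols means of 3 and bars their SD, and the day 0 samples, which were not transduced, start both lines of a genotype. The TTKO mock means lie between 73.1% and 78.0%, TTKO Cre falls to 40.8%, and WT mock rises to 33.6% at day 8 before it returns to 13.9% at day 17.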

How the data were processed

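DNA methylation was measured in 102 mouse ESC samples, mapped to groups by their labels (3 per group). Per the study's methods, the authors used Rbowtie within QuasR for alignment to mm9, called capture levels with qMeth and amplicon levels with AmpliconBiSeq, kept capture CpGs with at least 50 reads at all times and amplicon levels with at least 100. Coverage was deposited as counts of reads without normalization. Capture levels were deposited as percent of reads methylated, with replicates joined, and amplicon levels as a fraction per sample. Methylated reads were coverage times level, which for 100% of amplicon values was whole within 0.01 reads. The capture table also holds 4 columns of the authors' rates, TET activity and confidence classes, which were not used. Capture columns sum to between 421283985 and 740590811 reads on CpGs.

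Positions were matched to NCBIM37 (mm9), where all 2177608 were a C followed by G, and to its gene annotation. TET-dependent CpGs at most 500 bases apart formed a cluster. Capture days 4 and 29 were compared with two-sided Fisher's exact tests and Benjamini-Hochberg adjustment over all CpGs (threshold 0.05), since joined replicates allow no replicate model. Rates were fitted to the joined capture levels, not per replicate as the study did, on a grid of 80 values an axis with the model of its methods (8% of day 0 mixed in for alleles that Cre left, error 0.0025 each way). Amplicon CpGs were compared by two-sided tests of a quasi-binomial model (0.5 added to each count, dispersions moderated with limma 3.58.1 in R 4.3.3, Benjamini-Hochberg over 405 CpGs), for 5 comparisons and 1 interaction. The study's methods call the replicates biological, and the p-values measure the spread between them within 1 line each. Other steps used Python 3.11.15, numpy 2.4.6, pandas 2.3.3, scipy 1.17.1, numba 0.67.0 and matplotlib 3.10.9, and the tests were tried on simulated data.

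The CpGs and gene lists were chosen with earlier results of these data known. Named were all TET-dependent CpGs in amplicons, the 15 largest clusters, the 5 clusters of at least 8 CpGs at each end of the share kept, the 10 genes with the most such CpGs, and at most 5 genes per list with at least 3. 1 of the 15 clusters is not reported here. The comparisons of mock day 8 with day 0 were added after the data were seen. Alternatives covered coverage, limits, joining distance, windows, matching, replicates and the replicate block.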

Additional observations from a re-analysis of the deposited data

Results flagged for a closer look

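The change from day 0 to mock day 8 differed between the lines. By an interaction term of line and day, 9 of the 18 TET-dependent CpGs in amplicons passed, against 95 of all 405 amplicon CpGs, in a comparison chosen after the data were seen. Low WT and high TTKO levels at day 0 chose these CpGs, which favours this direction, so the count is a description and no independent test. The strongest calls were at chr12:54133872 and chr12:54134055 in an intron of Akap6. At the first, WT went from 5.28% to 31.6% and TTKO from 78.9% to 79.9% (log2 ratio of odds ratios 2.77, SE 0.47, adjusted p = 0.00445 with limma moderation). At the second, WT went from 3.32% to 18.8% and TTKO from 55.3% to 49.8% (2.97, SE 0.50, adjusted p = 0.00445 with limma moderation). WT was higher at mock day 8 in all 18, and TTKO differed from day 0 by -6.13 to 10.8 percentage points.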

How the results depend on the processing

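The number of TET-dependent CpGs turned most on the limits: it was 46458 as defined, 7590 with limits of 5% and 60%, and 15035 with Wilson bounds past both limits. The island share was 13.3% with windows of 100 bases and 7.34% with 250. The share kept at day 29 was 48.2% from summed reads and 47.3% with clusters weighing the same, against 48.4%. For level-matched other CpGs it was 43.3% with bins of 2 percentage points, 42.9% with at least 100 reads, 44.6% with TTKO day 0 of at least 50 alone and 45.4% when these were matched on day 0 (the last 2 chosen after the data were seen), against 43.5%; matched on day 0, the day 29 levels were nearly equal (27.9% and 28.1%). The median log2 k_de was -4.78 when fitted from day 4 on. The other planned settings left cluster counts and Fisher counts within 1.5 times.

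Leaving out 1 amplicon sample gave 18 to 18 calls for TTKO against WT at day 0, 17 to 18 for Cre against mock at day 29, 18 to 18 for the mock lines at day 29, 12 to 18 for WT mock day 8 against day 0 and 0 to 0 for TTKO. At least 500 reads left all 18 CpGs for WT mock day 8 against day 0, where 18 passed, and 15 in each other comparison, of which 14 passed for Cre against mock. With the replicate number as a block, the calls were 18, 18 and 18 of 18 in the planned comparisons, 18 for WT mock day 8 and 0 for TTKO. Same-numbered samples did not deviate together (correlations -0.168, -0.147 and -0.321 at day 0, and -0.119, 0.0502 and -0.132 for Cre and mock), so the numbers do not pair the samples. No single amplicon CpG changed its direction with a call. Joined capture replicates give no replicate error, so small differences between capture shares cannot be set against one.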
